A study of Oryza sativa with 24 samples.

Results

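SWEET proteins are sugar uniporters that let sugars move down their concentration gradient across the plasma membrane or the vacuolar membrane, and many of them act where a cell hands sugar to its neighbours. Members of the clades that hold SWEET1 to SWEET3 and SWEET4 to SWEET8 move mainly hexoses, the clade of SWEET11 to SWEET15 moves mainly sucrose, and SWEET16 belongs to a vacuolar clade. Developing pollen has no plasmodesmata to the anther wall, so that its sugar has to pass the locule and be taken up across membranes. The genes described here are 10 listed rice SWEET genes, namely SWEET1a, SWEET1b, SWEET2a, SWEET3a, SWEET4, SWEET5, SWEET11, SWEET13, SWEET14 and SWEET15. Members were the probe sets that the array annotation maps to a single rice gene whose RefSeq symbol or synonym is on this list. There were 10 such probe sets for 8 of the 10 genes, out of 57258 probe sets analysed, and SWEET3a and SWEET13 were not analysed here.

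The signals came from 24 Affymetrix Rice Genome Arrays with 3 biological replicates for each of 8 tissues of japonica rice, which the methods give as cultivar Zhonghua 10, with no mutation or transgene named in the labels. The pollen series began with microspores that still had a single nucleus (UNMs), followed by pollen of the bicellular stage (BCP) and by tricellular pollen that was not yet mature (TCP). All of these came from crushed anthers, and BCP was also passed through a Percoll gradient. The later stages were mature pollen grains (MPGs) shaken from flowering panicles, and germinated pollen grains (GPGs) kept for about 10 min in a liquid medium with 20% sucrose. The sporophytic tissues were callus grown from seeds with 2 mg/l 2,4-D, roots of seedlings 2 weeks old, and leaves. The labels call the leaves flag leaves at grain filling, 110 to 120 days after germination, whereas the methods name leaves of young seedlings, and which were used could not be settled here. By the paper's counts the UNM, BCP and TCP preparations were not wholly pure, BCP the least, and not all GPG grains had germinated. A difference in signal between tissues can come from fewer cells of a type or from less RNA per cell, and the arrays cannot tell these apart.

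Some arrays stood apart from the rest. Between replicates Pearson's r of the log2 signals ranged from 0.826 to 0.879 in MPGs and GPGs. It was 0.943 or lower between root replicate 3 and the other root replicates, against 0.986 between root replicates 1 and 2, and it lay between 0.925 and 0.942 among the TCP replicates. The 6 MPG and GPG arrays had median signals of 146.9 to 197.9, and the 18 others of 51.3 to 105.2. On the same 6 arrays the mean of the 9 hybridisation control probe sets, which bind RNA added in equal amount, was 8989 to 17347, against 1458 to 4228 on the others. Measured against the added RNA, the MPG and GPG signals were thus lower than under the deposited scaling. From TCP to MPGs the median change of all tested probe sets was 0.55 on the log2 scale as deposited and -0.58 after scaling to the hybridisation controls. Changes into MPGs are therefore given under both scalings. The 10 photosynthesis probe sets summed to at least 202723 in each leaf array and to at most 4152 elsewhere, the 4 root probe sets to at least 37069 in each root array and to at most 1283 elsewhere, and the 5 late pollen probe sets to at least 482966 in each MPG array against at most 4135 in any sporophytic array.

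SWEET5, a member of the hexose clade for which galactose transport has been reported in rice, was the listed gene with the steepest course in pollen. In UNMs the signals of replicates 1 to 3 were 92.0, 532.0 and 222.8, and in BCP they were 181.4, 510.2 and 131.9. In TCP they were 48901, 58827 and 37070. UNM and BCP arrays overlapped, every TCP array lay far above them, and replicate 2 was the highest array at each of these 3 stages. The MPG arrays read 178203, 155420 and 181377, and the GPG arrays 183102, 182220 and 138207. The 9 sporophytic arrays lay between 9.1 and 54.0, below every pollen array. Such high signals may lie near the upper end of the scanner's range, which the deposited files do not flag and which was not tested.

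**Figure D1:**
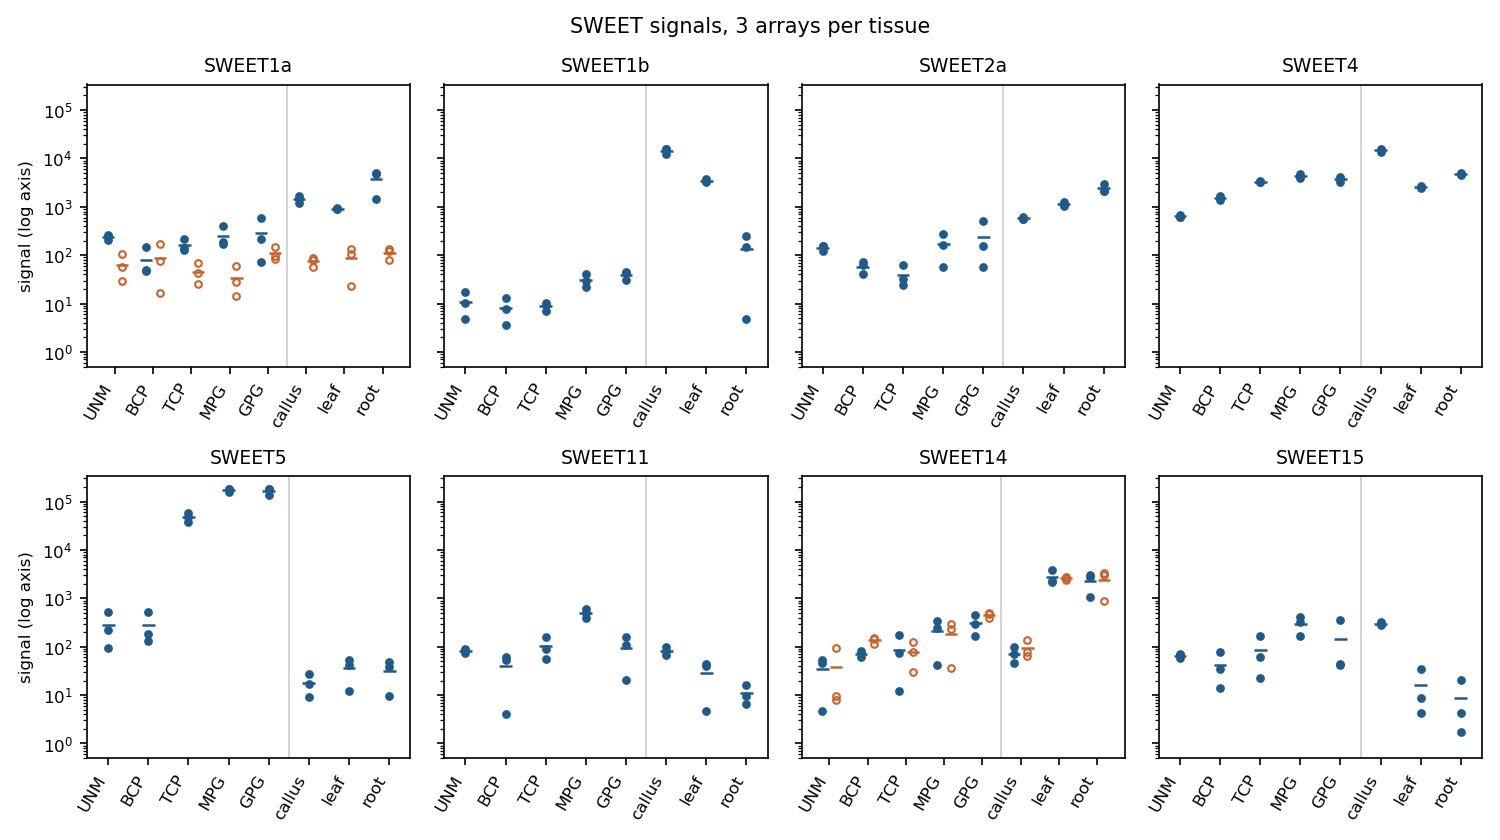
Signal of each SWEET gene (log axis, arbitrary units after the deposited scaling) in the 8 tissues. Points are single arrays, short lines are means of 3 arrays, and the grey line divides pollen from sporophytic tissues. Orange open points show the second probe set of SWEET1a and SWEET14. SWEET5 lies at or above 37070 on all TCP, MPG and GPG arrays and at or below 54.0 on all sporophytic arrays, while SWEET1b lies at or above 3293.8 in callus and leaves and at or below 46.0 in pollen.

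Each comparison was a difference of mean log2(signal + 50) from a limma fit over all 24 arrays. The fit took 1 spread per probe set for all tissues, although MPG and GPG replicates were less alike than the others. Its SE and p may therefore understate the spread in comparisons with these stages. A probe set was called at a Benjamini-Hochberg adjusted p under 0.05 with a log2 fold change of at least 1. From UNMs to BCP, 1 of the 10 SWEET probe sets was called higher and 0 lower, whereas 6.11% of the 47589 tested probe sets were called higher and 8.19% lower. From BCP to TCP 2 were higher and 0 lower (10.2% and 12.9% of all). From TCP to MPGs 4 were higher and 0 lower (27.0% and 11.9%). From MPGs to GPGs 0 were higher and 1 lower (3.00% and 4.67%). At an unadjusted limma p under 0.05 these counts were 2 higher and 1 lower at the first step, 3 and 0 at the second, 5 and 0 into MPGs, and 2 and 2 into GPGs. The share of all tested probe sets at this unadjusted limit was not computed, so these counts have no background to be read against. With the hybridisation controls the calls were 1 higher and 2 lower from UNMs to BCP (5.34% and 14.9% of the 43950 probe sets tested there), 1 and 0 from BCP to TCP (9.2% and 18.3%), 0 and 1 from TCP to MPGs (1.33% and 32.4%), and 0 and 0 from MPGs to GPGs (0.0796% and 0.557%). None of the 4 rises into MPGs was among them, and the 1 lower was SWEET4. Between the mean of the 5 pollen stages and the mean of the 3 sporophytic tissues, 1 was higher in pollen and 6 lower (20.8% and 20.7%). With the hybridisation controls 1 was higher and 7 lower (6.35% and 42.8% of all). In this last comparison the median log2 fold change of the 10 was -1.85 as deposited, against 0.39 over all tested probe sets. With the hybridisation controls the median over all tested probe sets was -0.71.

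SWEET5 accounted for the large change at the tricellular stage. Its mean rose from 274.5 ± 205.6 in BCP to 48266 ± 10892 in TCP (mean ± SD, n = 3), a log2 fold change of 7.37 (SE 0.41, limma adjusted p = 8.6e-12), and from UNMs to BCP its log2 fold change was 0.02 (SE 0.41, adjusted p = 0.99). Into MPGs it rose to 171667 ± 14159, by 1.85 on the log2 scale (SE 0.41, adjusted p = 0.0012), as deposited. With the hybridisation controls the same difference was 0.003 (SE 0.45, adjusted p = 1.0), and with equal medians it was 0.87 (adjusted p = 0.14). Between MPGs and GPGs the log2 fold change was -0.04 (SE 0.41, adjusted p = 0.97). Averaged over stages, pollen exceeded the sporophytic tissues by 7.05 (SE 0.21, adjusted p = 2e-17), and by 6.12 with the hybridisation controls. As its sporophytic signals were near the offset of 50, the size of this difference was set in part by the offset, and it was 7.85 with an offset of 16 and 5.74 with one of 200. Its mean signal was also higher in UNMs and in BCP than in each sporophytic tissue. The log2 differences of the 6 pairs lay between 1.74 and 2.09, with limma adjusted p of at most 0.0014. What part pollen of later stages had in these UNM and BCP signals was not tested. SWEET5 passed the filter on low signals (100 in 3 arrays) through pollen arrays alone. Its adjusted p against sporophytic tissues is therefore not independent of the filter.

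SWEET4, a hexose transporter that in rice and maize supplies the filling grain, was present in all tissues and differed by stage. Its UNM signals of 688.1, 611.1 and 614.0 were followed by 1391.6, 1663.1 and 1557.7 in BCP and by 3205.7, 3216.5 and 3470.9 in TCP. No array of one of these stages overlapped those of the next. The means rose from 637.7 ± 43.64 to 1537 ± 136.9 (log2 fold change 1.21, SE 0.18, adjusted p = 2.9e-05) and then to 3298 ± 150.1 (1.08, SE 0.18, adjusted p = 6e-05). With the hybridisation controls these steps were 0.94 and 0.84, under the limit of 1. The MPG arrays read 3868.5, 4806.5 and 4286.8 and the GPG arrays 4183.4, 3301.1 and 3723.9. Into MPGs the log2 fold change was 0.38 as deposited (adjusted p = 0.085) and -1.43 with the hybridisation controls (adjusted p = 0.00034), so that its direction here depended on the scaling. Callus had the highest signals, 15774, 15073 and 13277, and its mean of 14708 was above that of each other tissue in the fit. Roots followed with 5024.9, 4842.1 and 4512.5, and leaves had 2643.3, 2583.5 and 2451.9.

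SWEET1b was a transcript of callus and leaves. Replicates 1 to 3 of callus gave 15963, 15324 and 12263, and those of leaves gave 3724.1, 3477.5 and 3293.8. The 15 pollen arrays lay between 3.6 and 46.0, all below every callus and leaf array. Root replicates 1 and 2 read 148.1 and 244.0 but replicate 3 only 4.7, so that the root arrays overlapped those of pollen. Callus exceeded leaves by 2.03 on the log2 scale (SE 0.37, adjusted p = 0.00013), and leaves exceeded roots by 4.59 (SE 0.37, adjusted p = 2.3e-09), while without root replicate 3 roots minus leaves was -3.88 (adjusted p = 3.6e-11). Averaged over stages, pollen was lower than the sporophytic tissues, with a log2 fold change of -4.845 (SE 0.19, adjusted p = 2e-15) as deposited and of -5.781 with the hybridisation controls. The pollen signals lay below the offset of 50, and the value was -5.68 with an offset of 16 and -3.56 with one of 200. SWEET1b passed the filter on low signals through sporophytic arrays alone, so its adjusted p against pollen is not independent of the filter. Without root replicate 3, roots were called above GPGs (1.43, adjusted p = 1.1e-05) and MPGs (1.59, adjusted p = 3.1e-06), which they were not with it (0.72 and 0.88).

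SWEET1a and SWEET2a, both of the hexose clade that holds SWEET1 to SWEET3, were highest in roots. The brighter SWEET1a probe set gave 4686.9, 5002.7 and 1430.3 in roots, 1669.0, 1439.0 and 1216.1 in callus, and 920.1, 935.9 and 887.1 in leaves. The 15 pollen arrays ranged from 46.1 to 574.8, below all sporophytic arrays. Pollen was lower by a log2 fold change of -2.90 (SE 0.25, adjusted p = 1.2e-09). Roots and callus did not pass the test against each other (1.15, SE 0.48, adjusted p = 0.091), but did without root replicate 3 (1.73, adjusted p = 0.0094). The mean of the other root arrays, 4845, was also well above the 1430.3 of replicate 3. The second SWEET1a probe set was dim in all tissues, with array signals from 14.7 to 167.2, and was called in none of the 5 comparisons as deposited, though lower in pollen with the hybridisation controls (-1.10, adjusted p = 5.1e-05). The SWEET1a probe sets thus disagreed, and which one measures the transcript better was not tested.

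SWEET2a, whose Arabidopsis relative sits on the vacuolar membrane of root cells, read 2109.5, 2116.2 and 2964.9 in roots. Leaves gave 1020.0, 1158.2 and 1261.6, and callus 560.1, 553.3 and 610.7. The 3 sporophytic tissues did not overlap, although neither roots against leaves (log2 difference 1.02, SE 0.42, adjusted p = 0.072) nor leaves against callus (0.93, adjusted p = 0.096) passed the test. Pollen arrays lay between 24 and 498.2, all below callus, and over stages pollen was lower by a log2 fold change of -2.996 (SE 0.22, adjusted p = 6.4e-11). From TCP, with 63.3, 32.2 and 24, to MPGs, with 166.3, 58.3 and 277.6, the signal rose as deposited (1.16, SE 0.42, adjusted p = 0.029). The arrays of these stages overlapped, the call was lost on leaving out TCP replicate 2 or 3 or MPG replicate 1 or 3, and with the hybridisation controls the difference was 0.003.

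**Figure D2:**
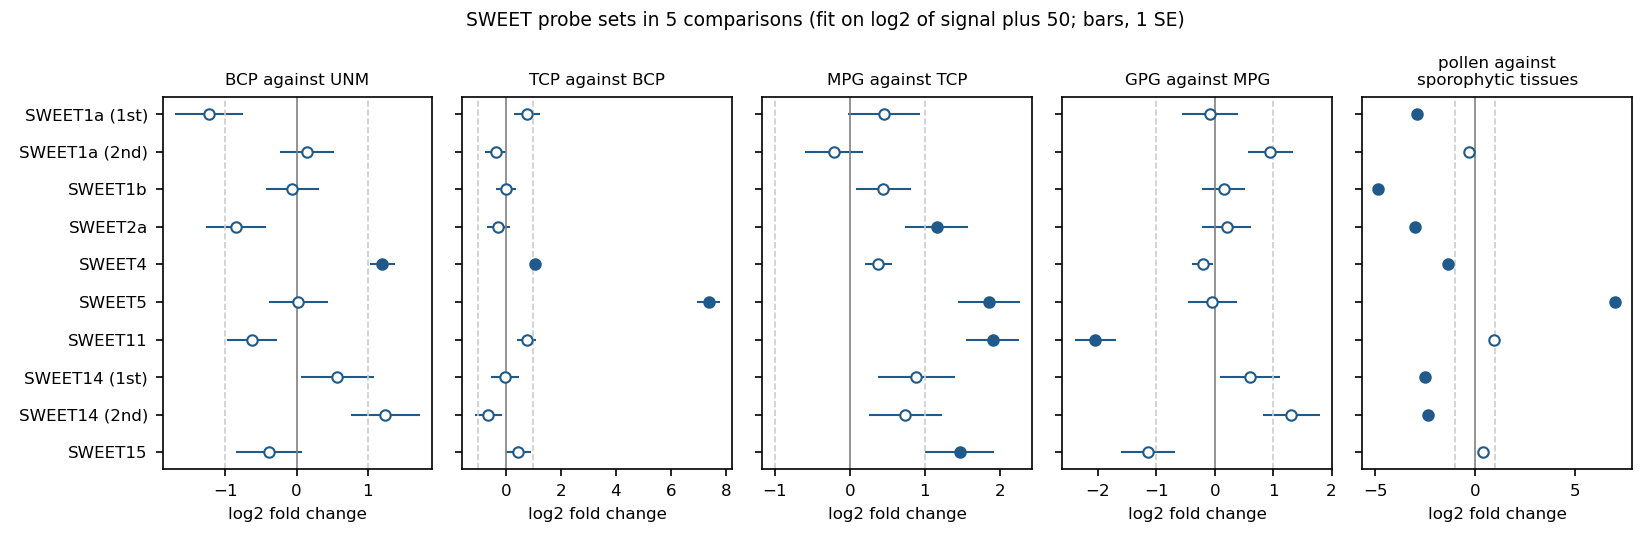
Log2 fold change of the 10 SWEET probe sets in the 5 comparisons, on the scale log2(signal + 50). Bars are 1 SE, filled points were called, dashed lines mark a log2 fold change of 1 in either direction, and each panel has its own horizontal range. SWEET5 stands alone at 7.37 from BCP to TCP, and in the last panel it lies at 7.05 while 6 probe sets of 5 other genes lie below -1.

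Among the sucrose clade, SWEET11 showed a peak in MPGs. SWEET11 is also known as Xa13 or Os8N3, a susceptibility gene for bacterial blight that is needed for fertile pollen, and together with SWEET15 it supplies the filling grain. Its MPG arrays gave 508.6, 398.8 and 596.0. All 21 other arrays were at or below 158.7, among them TCP with 158.7, 88.3 and 57.0 and GPGs with 109.4, 20.1 and 156.4. The mean rose from 101.3 ± 52.09 in TCP to 501.1 ± 98.81 in MPGs (log2 fold change 1.90, SE 0.35, adjusted p = 0.00019) and fell to 95.3 ± 69.24 in GPGs (-2.04, SE 0.35, adjusted p = 0.0011). With the hybridisation controls these differences were 0.33 (adjusted p = 0.57) and -1.41 (adjusted p = 0.099), and with equal medians 1.06 (adjusted p = 0.024) and -1.61 (adjusted p = 0.017). The main fit took its spread from all tissues, and called 1427 of the 47589 tested probe sets higher and 2224 lower at this step. A fit of MPGs and GPGs alone called 0 of them, so it cannot decide on this fall. The probe set is of a kind that may also bind related transcripts, so the level is uncertain as that of SWEET11 alone. Over all stages pollen was not called against the sporophytic tissues (0.95, SE 0.18, adjusted p = 9.6e-05), since its difference lay under the limit of 1. SWEET11 passed the filter on low signals through pollen arrays alone, so this adjusted p is not independent of the filter.

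SWEET14, known as Os11N3 and another target of bacterial blight effectors, was high in leaves and roots. Its first probe set gave 2135.8, 2240.0 and 3865.7 in leaves and 2993.2, 2720.2 and 1057.4 in roots, and the second, made for the same transcript but able to bind others, gave 2381.0, 2727.1 and 2663.2 in leaves and 3341.2, 3027.9 and 884.5 in roots. Root replicate 3 was again the lowest, at 0.37 and 0.278 times the mean of the other root arrays. Leaves and roots did not pass the test against each other with either probe set (log2 differences 0.36 and 0.30, adjusted p = 0.72 and 0.76). The callus and pollen arrays lay at or below 500.0 in both probe sets, under every leaf and root array. Over stages pollen was lower than the 3 sporophytic tissues by log2 fold changes of -2.51 (SE 0.27, adjusted p = 3e-08) and -2.37 (SE 0.25, adjusted p = 3.4e-08). Callus, with means of 71.5 and 94.27, was lower than leaves by 4.49 and 4.23 on the log2 scale (adjusted p of at most 3.4e-07), so that the mean over the 3 sporophytic tissues covers very unlike levels for this gene. Callus minus GPGs was -1.48 and -1.84 as deposited, both called, but 0.65 and 0.55 with the hybridisation controls, neither called. In GPGs the first probe set gave 165.1, 297.0 and 452.4 and the second 468.2, 500.0 and 395.6, and neither difference from MPGs was called, although that of the second probe set was called without MPG replicate 3 (1.69).

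SWEET15 was dim throughout. Callus gave 328.8, 287.9 and 284.0, MPGs 167.8, 324.4 and 406.9, and GPGs 352.4, 41.7 and 43.8, where a single array stood high. Leaves and roots lay between 1.7 and 35.1. Between TCP and MPGs the mean went from 84.27 ± 76.09 to 299.7 ± 121.4, a rise of 1.47 as deposited (SE 0.46, adjusted p = 0.014) and of 0.06 with the hybridisation controls (adjusted p = 0.94), and the arrays of these stages overlapped. The call was lost on leaving out TCP replicate 3 or MPG replicate 3. Callus was higher than leaves by 2.43 on the log2 scale (SE 0.46, adjusted p = 0.00019).

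**Figure D3:**
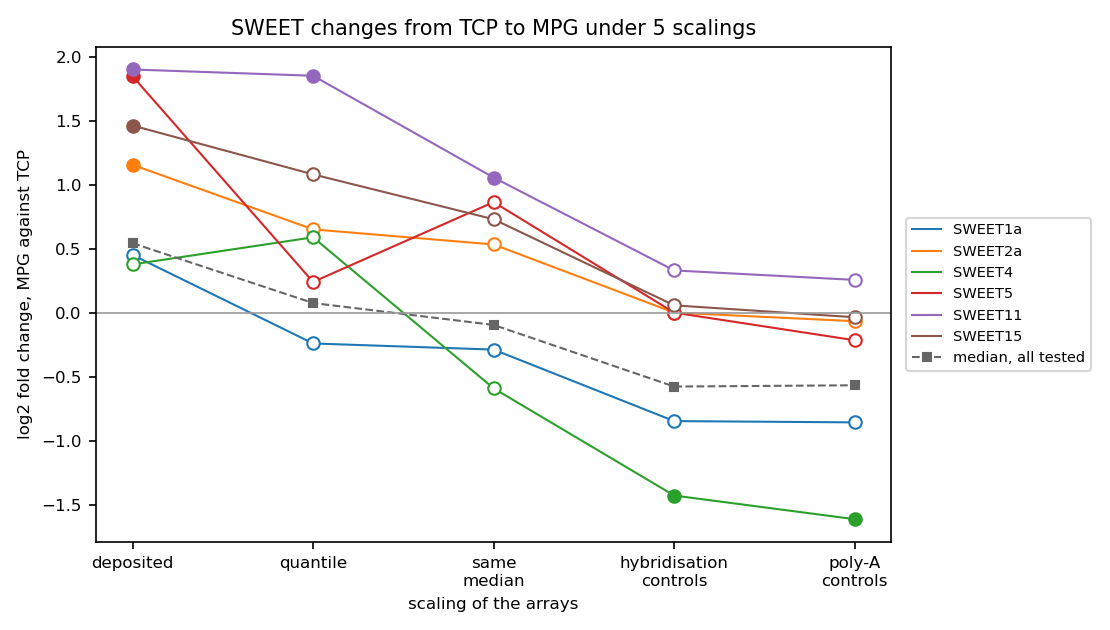
Log2 fold change from TCP to MPGs of 6 SWEET genes, under the deposited scaling and 4 others. Filled points were called, lines join the same probe set, and squares are the median of all tested probe sets. Each gene lies lower under the hybridisation controls than as deposited, with SWEET5 going from 1.85 to 0.003 and SWEET4 from 0.38 to -1.43 under the hybridisation controls.

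Ordering the 8 tissues of each probe set by mean signal gave 70 pairs of neighbours, of which 12 differed beyond the test (17.1%), against 9.46% over all tested probe sets. For SWEET5 the order was MPGs, GPGs, TCP, UNMs, BCP, leaves, roots and callus, with breaks between GPGs and TCP, between TCP and UNMs and between BCP and leaves only. For SWEET4 the order was callus, roots, MPGs, GPGs, TCP, leaves, BCP and UNMs, and only the first and the last neighbours were called. For SWEET1b the breaks were callus to leaves and leaves to roots, for SWEET1a and SWEET2a the lowest sporophytic tissue to GPGs, for both SWEET14 probe sets roots to GPGs, and for SWEET11 MPGs to TCP. SWEET15 and the second SWEET1a probe set had 0 called neighbours. With the hybridisation controls and the same orders, 24 of the 70 pairs were called in either direction, among them 9 of the 12. Calls against the order were MPGs to UNMs for SWEET1a (-1.757) and SWEET2a (-1.532), and GPGs to TCP for SWEET4 (-1.869). They also included GPGs to UNMs for SWEET11 (-1.272) and GPGs to leaves for the second SWEET1a probe set (-1.121). For the second SWEET14 probe set it was MPGs to BCP (-1.228). The 9.46% over all tested probe sets is for the deposited scaling, and this share was not computed with the hybridisation controls. The 24 pairs thus have no background to be read against. The breaks lost were GPGs to TCP for SWEET5 (-0.29), BCP to UNMs for SWEET4 (0.94) and MPGs to TCP for SWEET11 (0.33). The highest tissue was called above each of the 7 others for 3 of the 10 probe sets, those of SWEET1b, SWEET4 and SWEET11, against 16.2% of all.

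The array also held 5 probe sets for 4 SWEET genes outside the list. The probe set that RefSeq gives to SWEET6a and SWEET6b, of the same hexose clade as SWEET5, ran the other way through pollen. Its UNM arrays gave 14596, 14436 and 13221, its BCP arrays 6846.4, 7298.0 and 6907.4, and its TCP arrays 829.2, 1171.7 and 622.0. It changed from BCP to TCP by -2.98 on the log2 scale (SE 0.36, adjusted p = 1.1e-06) and by -3.226 with the hybridisation controls, whereas its difference of -0.999 between UNMs and BCP had an adjusted p of 0.056 and one of -1.291 with the hybridisation controls was called (adjusted p = 0.019). MPGs ranged from 377.6 to 842.8 and GPGs from 165.0 to 811.1, and the sporophytic arrays from 165.7 to 530.9. Over the same stages the summed signal of 11 tapetum and anther wall probe sets was 23464 to 26759 in UNMs, 10733 to 11623 in BCP and 5830 to 6502 in TCP, and that of RTS, a tapetum gene, went from a mean of 12695 to 1107 and 41.2. Most of the fall of this sum from UNMs to BCP was that of RTS, and the other probe sets of the list together fell less. Callus and leaves had 11409 to 11873 for the same sum. What part tapetum RNA had in the SWEET6a/SWEET6b signal was not tested.

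SWEET2b was a leaf transcript, with 3788.0, 4150.5 and 3728.6 for its first probe set and 3927.8, 4002.7 and 3264.9 for its second, and no other array exceeded 404.9. Leaves were above roots by 3.95 (SE 0.35, adjusted p = 9.9e-09) and 3.75 (SE 0.55, adjusted p = 1.1e-05) on the log2 scale. SWEET16 read 196.8, 162.7 and 178.3 in MPGs, 6.7, 10.9 and 3.8 in TCP and 15.1, 13.8 and 25.4 in GPGs, and at most 141.9 on any array outside MPGs. It passed the filter on low signals through its MPG arrays, so these levels are given without a test. SWEET12 was too dim to be tested, with a highest signal of 191.1 on MPG replicate 1.

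**Figure D4:**
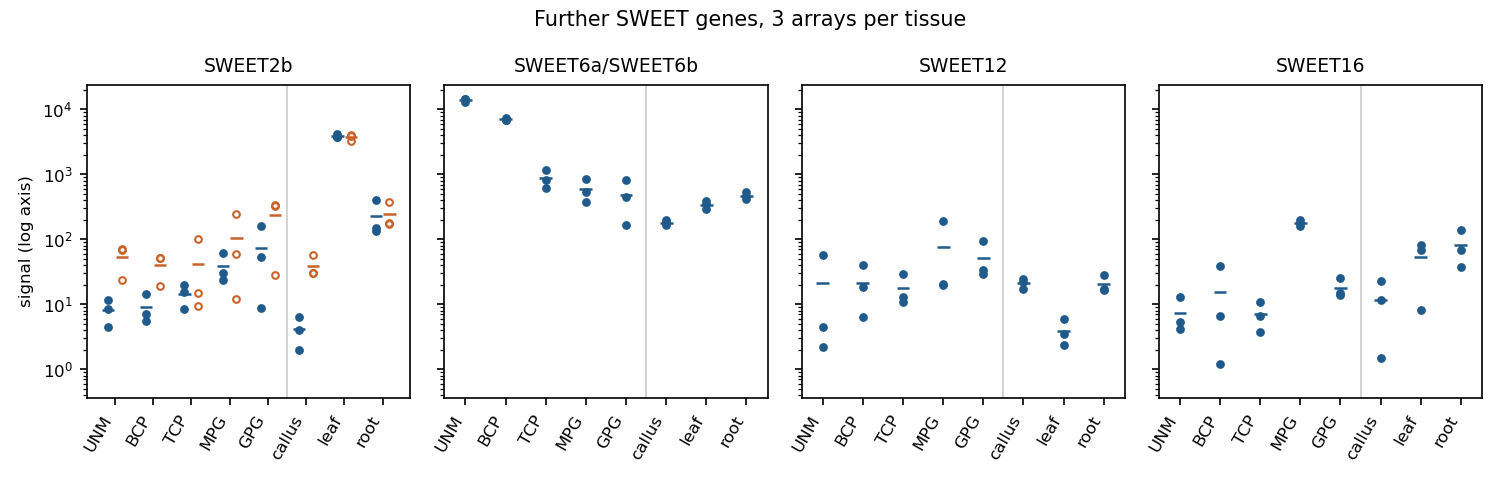
Signal (log axis) of 4 SWEET genes outside the list in the 8 tissues. Points are arrays and short lines means of 3, and orange open points show the second SWEET2b probe set. SWEET6a/SWEET6b goes from at least 13221 in UNMs to at most 1171.7 in TCP, and SWEET2b is at or above 3264.9 in leaves and at or below 404.9 elsewhere.

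Other sugar genes were read beside the SWEET genes, as 27 tested probe sets of sucrose transporters, monosaccharide transporters, cell wall invertases, sucrose synthases and hexokinases. From UNMs to BCP 4 rose and 3 fell (6.11% and 8.19% of all tested probe sets), from BCP to TCP 3 rose and 7 fell (10.2% and 12.9%), from TCP to MPGs 4 rose and 7 fell (27.0% and 11.9%), and from MPGs to GPGs 0 rose and 2 fell (3.00% and 4.67%). Pollen was higher for 6 and lower for 9 against the sporophytic tissues (20.8% and 20.7%). With the hybridisation controls 0 were higher and 15 lower in MPGs than in TCP (1.33% and 32.4% of all). Under the same scaling 6 were higher and 17 lower in pollen (6.35% and 42.8% of all). The proton-coupled sucrose transporter SUT1 read 813.3, 578.4 and 711.8 in BCP, then 8139.3, 6231.4 and 7130.4 in TCP, and then 481.8, 799.2 and 650.2 in MPGs. It rose by 3.27 (SE 0.52, adjusted p = 4.2e-05) and fell by 3.40 (SE 0.52, adjusted p = 2.1e-05) on the log2 scale, and by 5.00 at the second step with the hybridisation controls.

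The monosaccharide transporter MST5 had a like course. It rose from 66.7 ± 36.48 in UNMs to 3302 ± 384.6 in BCP (4.89, SE 0.29, adjusted p = 7.4e-11) and to 21338 ± 2274 in TCP (2.67, adjusted p = 3.2e-07), and fell to 2150 ± 879.6 in MPGs (-3.37, adjusted p = 9.8e-09), while no sporophytic array exceeded 22.6. The cell wall invertase CIN3, which splits sucrose outside the cell, peaked earlier, with 17264 ± 1748 in BCP and 830.4 ± 197.2 in TCP (-4.32, SE 0.42, adjusted p = 6.2e-08). The hexokinase HXK5 fell from 34114 in TCP to 5050 in MPGs (-2.77, SE 0.20, adjusted p = 9.3e-10). CIN3 fell further into MPGs (-1.32, adjusted p = 0.015), with overlapping arrays. The falls into MPGs of SUT1, MST5, CIN3 and HXK5 kept their direction and call with the hybridisation controls. Under the deposited scaling, the MPG level relative to the highest stage mean was 8.98% for SUT1, 10.1% for MST5, 2.14% for CIN3 and 14.8% for HXK5. SWEET5 was at 28.1% in TCP and 97.8% in GPGs of its MPG level under this scaling. With the hybridisation controls its log2 fold change from TCP to MPGs was 0.003.

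**Figure D5:**
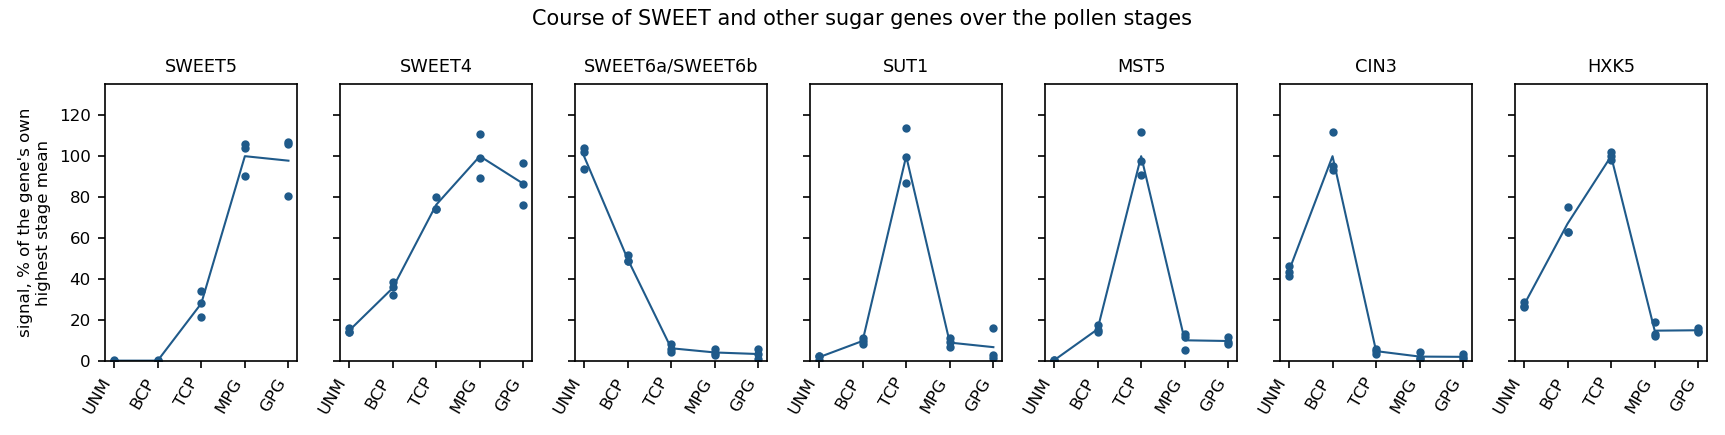
Signal of 3 SWEET and 4 other sugar genes over the pollen stages as a percentage of each gene's own highest stage mean (points, arrays; line, mean of 3). The stage means of SWEET6a/SWEET6b and CIN3 are at or below 6.21% from TCP on, SUT1, MST5 and HXK5 peak in TCP, and the means of SWEET5 and SWEET4 stay at or above 86.5% in MPGs and GPGs, with single arrays down to 76.4%, under the deposited scaling.

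Other sugar genes differed between pollen and the sporophytic tissues. The first SUT2 probe set (2473 against 195.2 in pollen, log2 fold change -3.58), MST3 (6241 against 340.2, -3.67), the invertase CIN1 (1248 against 18.45, -3.93) and the sucrose synthases SUS1 (first probe set, 8779 against 215.1, -4.06) and SUS2 (10167 against 328.5, -4.97) were all lower in pollen with limma adjusted p of at most 1.7e-13. CIN1 passed the filter on low signals through sporophytic arrays alone, so its adjusted p is not independent of the filter. The second SUT2 probe set, 314.4 against 166.4 in pollen with overlapping arrays, was not called (-0.65, adjusted p = 0.02). The sucrose transporter SUT5 was higher in pollen (2.23, SE 0.16, adjusted p = 3.9e-11), as were CIN3 (4.17, SE 0.22, adjusted p = 2.5e-13) and HXK5 (3.38, SE 0.10, adjusted p = 2.5e-17).

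The genes with an informative RefSeq name whose 8 tissue means of log2(signal + 50) were most like those of a SWEET gene were found by Pearson's r, as a description over 8 tissues that share their arrays and scaling. For SWEET5 they were CDPK2, a calcium-dependent protein kinase (r = 0.9955), the cellulose synthase-like gene CslD5 (0.9922), the potassium transporter HAK20 (0.9909), AT1 (0.9909) and the thioredoxin Trx20 (0.9908), and with the hybridisation controls r stayed between 0.9815 and 0.9924. SWEET1a was most like Hsf-24 (0.9928) and the aquaporin PIP2;6 (0.9859), SWEET2a most like IRX14 (0.9919), a xylan synthesis gene, and SWEET1b most like SAUR39 (0.9842). SWEET4 was most like CslE2 (0.9631), and the first SWEET14 probe set most like Hox15 (0.9866). SWEET15 was most like IAA20 (0.9564), followed by the sucrose synthase SUS3 (0.9331). For SWEET11 the gene ranked first, RPS21, had r = 0.955 as deposited and 0.5717 with the hybridisation controls.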

How the data were processed

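Deposited signal intensities of 24 Affymetrix Rice Genome Arrays were used, which the authors made with GCOS and MAS5 per the submitters' notes, scaled to a target of 500. The table's 2% trimmed mean is 500.1 on each array. Detection calls were not used, and no depth applies to arrays, whose number limits the precision. Arrays were grouped by their labels. Of 57381 probe sets, 123 controls were left out. The array annotation gave 22436 probe sets 1 gene, 95 several and 34727 none, and genes were named through RefSeq. No sequence or coordinates are shown, as no genome build is named.

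Log2(signal + 50) was fitted with limma 3.58.1 in R 4.3.3, with 1 mean per tissue, over 47589 probe sets with a signal of 100 in 3 arrays. Calls required a log2 fold change of at least 1 besides a limma p that, adjusted by Benjamini and Hochberg, lay under 0.05. Python 3.11.15, numpy 2.4.6, pandas 2.3.3 and matplotlib 3.10.9 did the rest. On simulated arrays for BCP against UNM with 47589 probe sets, 24 of 50 changes of 1.5 on the log2 scale, 33 of 50 of 2, 48 of 50 of 3 and 50 of 50 of 4 were called, with 6 false calls.

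The SWEET members and the other lists were chosen with earlier results of these data known. Named are all SWEET probe sets, called probe sets of the sugar lists with the largest changes (at most 4 a list and comparison, from which those printed were picked after their values were seen), and, for members with a tissue mean of at least 200, the 5 most similar named genes, of which 1 to 5 are printed. Alternatives changed the offset, filter, scaling, fit and left-out array; a scaling to 12 poly-A probe sets without trp was added after seeing the data.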

Additional observations from a re-analysis of the deposited data

How the results depend on the processing

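Counts of called SWEET probe sets (1, 2, 4 and 1 over the steps of pollen development, 7 for pollen against sporophytic tissues) were recomputed under 12 other settings, of which the poly-A scaling without trp was chosen after seeing the data, and with each of 24 arrays left out. From UNMs to BCP the count was 2 with an offset of 16 or with equal medians, 3 with the hybridisation controls (SWEET14 higher, SWEET1a and SWEET2a lower, SWEET4 lost) or with only the groups compared, and 0 with the poly-A controls, with or without trp. Of all tested probe sets, 6.28% were called higher and 7.85% lower there with an offset of 16, and 7.46% and 9.96% with equal medians. With only the groups compared the shares were 6.68% and 9.25%, with the poly-A controls 3.51% and 4.55%, and without trp 2.51% and 3.25%. From BCP to TCP the count was 1 with equal medians, the hybridisation controls and either poly-A scaling. Shares of all were then 8.12% higher and 20.1% lower with equal medians, 3.75% and 15.9% with the poly-A controls, and 3.23% and 11.3% without trp. From TCP to MPGs the count was 2 with an offset of 200 (10.8% of all higher and 8.97% lower). With only the groups compared it was also 2 (16.0% and 9.8%). It was 1, SWEET11 higher, with quantile normalization (13.4% and 16.4%) or equal medians (6.5% and 22.0%). With the hybridisation (1.33% and 32.4%) or the poly-A controls (0.482% and 24.7%) it was 1, SWEET4 lower, and none of the rises was called. Without trp it was 0 (0.362% and 21.6%). From MPGs to GPGs the count was 2 with quantile normalization (3.78% of all higher and 4.49% lower). It was 0 with the hybridisation controls (0.0796% and 0.557%), either poly-A scaling or only the groups compared, all by limma. With only the groups compared 0 of all 47589 probe sets were called at this step, so its 0 is not informative on SWEET genes. Of all probe sets, 2 were higher and 1 lower with the poly-A controls, and 1 and 0 without trp. The count of 7 stayed between 7 and 8.

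From TCP to MPGs the sign under the hybridisation controls differed for 5 of the 10 SWEET and 9 of the 27 sugar probe sets. Among log2 fold changes called under either scaling, it turned for SWEET4 (-1.43 with the hybridisation controls, -1.61 with the poly-A controls), SWEET5 (-0.21 with the poly-A controls, -0.26 without trp), SWEET2a (-0.064 and -0.037), SWEET15 (-0.033 and -0.017) and MST3 (-0.33 with the hybridisation controls, -0.43 with the poly-A controls, -0.43 without trp), and for HXK4/HXK8 (0.10 as deposited, -1.34 with the hybridisation controls). The cause was not tested. With an array left out, the counts ranged from 1 to 3 from UNMs to BCP (3 without root replicate 3, 2 without UNM replicate 1, MPG replicate 1 or GPG replicate 1 or 2), from 2 (without TCP replicate 3) to 4 from TCP to MPGs, and from 1 to 2 from MPGs to GPGs (2 without MPG replicate 3 or GPG replicate 1). Counts of called neighbouring tissues moved in 15 of 119 cases under other settings. Of 906 log2 fold changes under other settings, 794 were classed as the same, which does not require the same sign where neither setting was called. A sign change of this kind was that of the first SWEET14 probe set from TCP to MPGs (0.884 as deposited, -0.185 with the hybridisation controls).

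Deviations of 84 same-numbered array pairs correlated between -0.053 and 0.176, 7 above 0.1 (median 0.033), against 1 of 168 other-numbered pairs (median -0.017). As most stayed under 0.1, the numbers were not taken to pair the arrays. With the replicate number as a block the counts were 1, 2, 4, 1 and 7.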
